A study of Homo sapiens with 6 samples.

Results

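The zinc finger genes of distal 19q13.4 are the protein-coding genes with symbols starting with ZNF or ZSCAN that start between bases 51500000 and 58700000 of chromosome 19 (GRCh38). Of 106 such genes, 98 had a mean normalized value of at least 10 over 6 libraries, among 16347 genes of the genome that reached this minimum. Their expression was compared between parental and onvansertib-resistant H526 cells, in the order in which the genes lie on the chromosome. The rule used name, position and level.

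H526 is a small cell lung cancer line, and onvansertib is an oral inhibitor of polo-like kinase 1, a kinase that drives mitosis. The study asked which genes differ once such cells have become resistant. The parental group (libraries 1 to 3) was H526 in RPMI-1640 with fetal bovine serum, and the resistant group (libraries 7 to 9) was H526 in the same medium with onvansertib, which was started at 10 nM and raised stepwise to 75 nM over a year. RNA was taken from both kinds of cells of this 1 line on 3 occasions, so n = 3 per group measured the spread between harvests, which may be technical, and selection, drug and time in culture cannot be told apart.

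C2H2 zinc finger proteins bind DNA through tandem fingers, each of which reads a few bases. The genes of this stretch arose largely by tandem duplication, and most encode an N-terminal KRAB domain, which recruits the corepressor TRIM28 and through it the histone methyltransferase SETDB1 to silence transposable elements and imprinted loci. A smaller group carries a SCAN domain, through which such proteins pair with each other, and others carry fingers alone.

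The deposited values were read counts per gene after the authors' DESeq2 normalization. The depth that the values allowed to be estimated lay between 22302356 and 28476925 reads per library, and 3 reads, taken as the limit of detection, corresponded to a mean value of 2.84 in parental and 3.17 in resistant libraries. POU2F3, the factor that defines the tuft cell-like subtype of this cancer, lay between 24511 and 26809 in parental and between 26844 and 27873 in resistant libraries and did not pass the test. Of the other 5 markers of that subtype, TRPM5, SOX9 and GFI1B rose (log2 fold changes of 1.77, 0.34 and 0.20) and AVIL and ASCL2 fell (-0.80 and -0.47). The 3 neuroendocrine markers tested (INSM1, SYP and CHGA) fell, and the summed level of the neuroendocrine list went from 7029 to 8468 down to 1454 to 1689. The 6 markers of immune, fibroblast and endothelial cells summed to 69.2 to 98.9 in parental and 234 to 307 in resistant libraries. COL1A1 rose from 42.0 to 84.2 up to 229 to 293, COL3A1 lay between 5.77 and 26.2 over all libraries and did not pass the test, and PTPRC, CD68, PECAM1 and CDH5 were at or near 0. The part of these shifts in the results below was not tested. In bulk RNA, fewer cells of a type and less RNA per cell cannot be told apart.

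Zinc finger genes of distal 19q13.4 fell more often than they rose in the resistant cells. Of the 98 genes tested, 50 fell, none rose and 48 did not pass the test (limma on log2(value + 1), Benjamini-Hochberg adjusted p under 0.05 over all genes tested). The share that fell was 51.0%, against 19.84% of all genes tested, and the share that rose was 0%, against 17.84%. The median log2 fold change was -0.37 (quartiles -0.64 and -0.07), beside -0.001 over all genes. A log2 fold change here is a difference of mean log2(value + 1), resistant minus parental, which makes the change of low genes look smaller than it was. When each library was centred on the other genes of chromosome 19, a step added after the data were seen that moved the median of all genes to 0.11, 34 members were lower and 5 higher, with a median of -0.26.

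The shift was present in each resistant library. The median deviation of the 98 genes from their parental mean was -0.31, -0.33 and -0.38 on the log2 scale in resistant libraries 7, 8 and 9, while it was 0.02, -0.03 and 0.01 in parental libraries 1, 2 and 3 and within 0.01 of 0 over all genes in every library. Together the members made up 0.229% to 0.233% of the total signal in parental and 0.182% to 0.192% in resistant libraries, and their summed value fell from 57976 to 44804, or 77.3% of the parental sum. Every resistant library lay below every parental library in 57 members, or 58.2%, against 25.86% of all genes tested. The opposite order was found in 3 members, against 3927 of all 16347 genes tested. They were ZNF865, ZNF419 and ZNF776, named after their values were seen, and none of them passed the test. An exact permutation test (two-sided) of 3 against 3 libraries has a smallest p of 0.10, which each member without overlap reached.

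**Figure D1:**
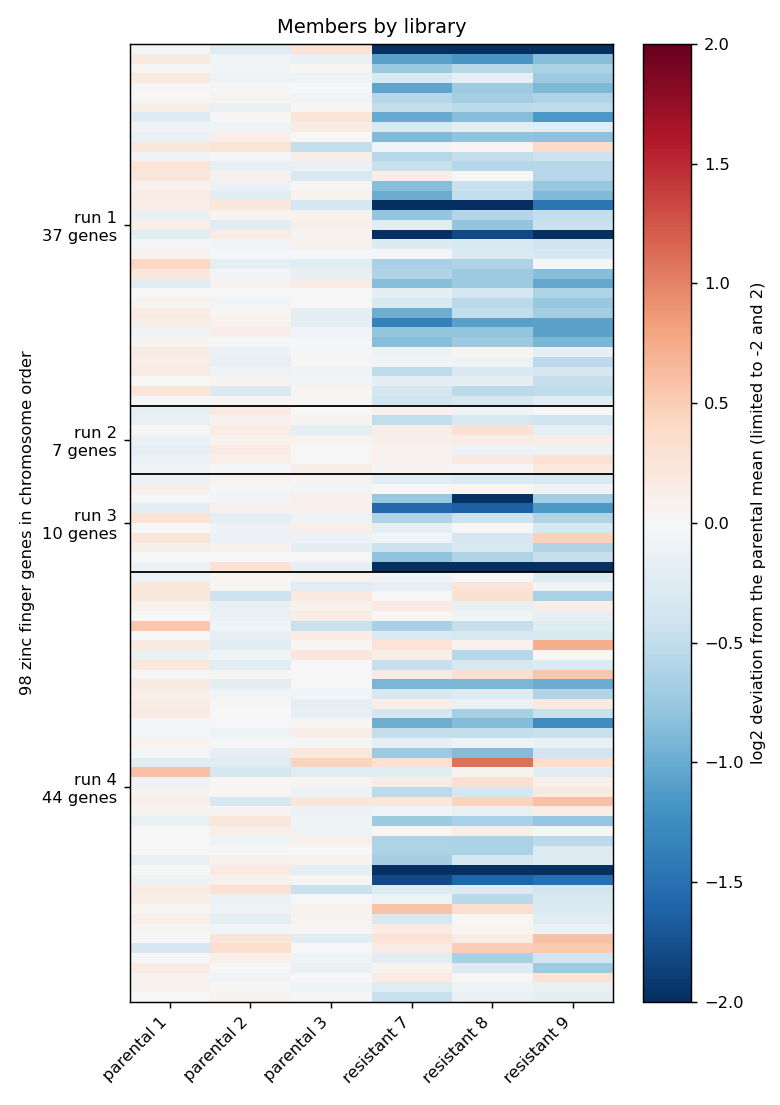
Deviation of each of the 98 members (rows, in chromosome order) from its parental mean in every library (columns), in log2 units with colours limited to -2 and 2 (blue lower, red higher). The 3 parental columns are pale throughout, and the resistant columns are mostly blue in runs 1 and 3, pale in run 2 and mixed in run 4.

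Most of the falls were modest. The median size of the 50 falls was 0.63 log2 units, and the smallest was 0.27, in ZNF787, whose resistant mean was 82.8% of the parental mean. The median spread between libraries of a group was 0.15 log2 units (SD) over the members. A fall of at least 1 log2 unit was found in 12 members, or 12.2%, against 3.628% of all genes tested. These were ZNF175, ZNF135, ZNF835, ZNF578, ZNF83, ZSCAN18, ZNF582, ZSCAN5A, ZNF415, ZNF577, ZNF530 and ZNF432, in order of size. Of these, ZNF175, ZNF135 and ZNF835 passed the minimum mean of 10 through the parental libraries alone, so that they had to differ.

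**Figure D2:**
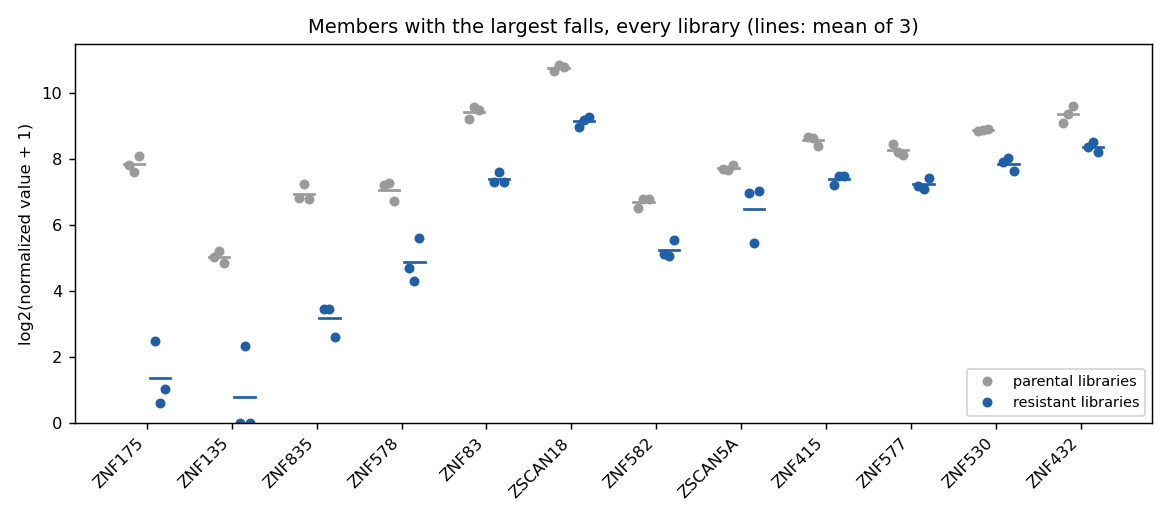
Values of the 12 members with the largest falls as log2(normalized value + 1), with a point for each library (grey parental, blue resistant) and a line at the mean of 3 libraries. No resistant point reaches a parental point of the same gene, and ZNF175 and ZNF135 come down to the limit of detection.

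The members did not move evenly along the chromosome. They fell into 4 runs when a new run was started wherever neighbouring members started more than 0.25 Mb apart. Run 1, from ZNF175 to ZNF331 (51571283 to 53580269), held 37 members, of which 28 fell (75.7%), and its median log2 fold change was -0.53. Run 2, from ZNF628 to ZNF581 (55476617 to 55645623), held 7 members, of which 1 fell, and its median was 0.07. Run 3, from ZNF787 to ZNF835 (56087366 to 56671783), held 10 members, of which 7 fell, and its median was -0.50. Run 4, from ZNF264 to ZNF446 (57191500 to 58481230), was the longest list with 44 members, of which 14 fell (31.8%), and its median was -0.17. No member of any run rose. With a gap of 0.5 Mb in place of 0.25 Mb, runs 2 and 3 joined into a run of 17 members, of which 8 fell, with a median of -0.18.

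**Figure D3:**
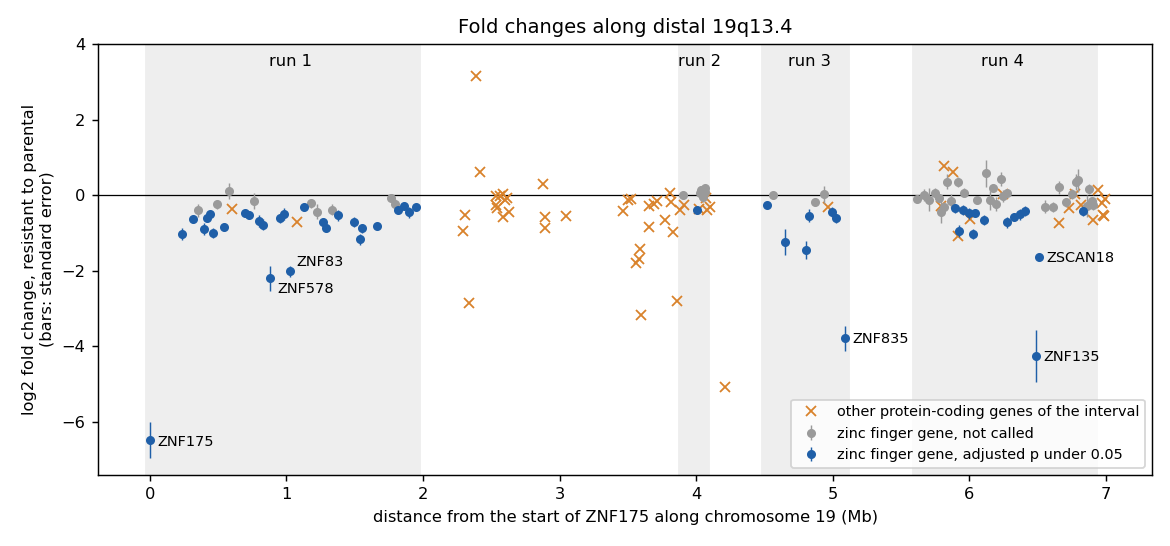
Log2 fold change of every tested protein-coding gene of the interval against its distance in Mb from the start of ZNF175, with the 4 runs shaded. Circles are the 98 zinc finger genes with their standard errors (blue where the adjusted p was under 0.05, grey where not), and crosses are the 60 other protein-coding genes. In run 1 nearly all circles lie below 0, and in run 4 they lie on both sides of it.

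The runs kept these levels in each library. In resistant libraries 7, 8 and 9 the median deviation from the parental mean was -0.57, -0.53 and -0.61 in run 1, and -0.52, -0.38 and -0.53 in run 3. It was smaller in run 4, with -0.19, -0.14 and -0.23, and above 0 in run 2, with 0.07, 0.02 and 0.01. The parental libraries of run 2 themselves ranged from -0.13 to 0.10, so that run showed no difference beyond its own spread. The summed value of run 1 was 66.6% of the parental sum, beside 82.0% in run 3, 83.0% in run 4 and 101.0% in run 2. The differences between runs were not tested. Over the 94 pairs of neighbours within a run, the log2 fold changes of neighbours had a Spearman correlation of 0.38 and a Pearson correlation of 0.25, a description across genes that share the same 6 libraries. The longest stretch of neighbours that all fell held 7 genes, from ZNF880 to ZNF611 in run 1, and the longest stretch without a fall held 9, from ZNF264 to ZNF749 at the start of run 4.

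**Figure D4:**
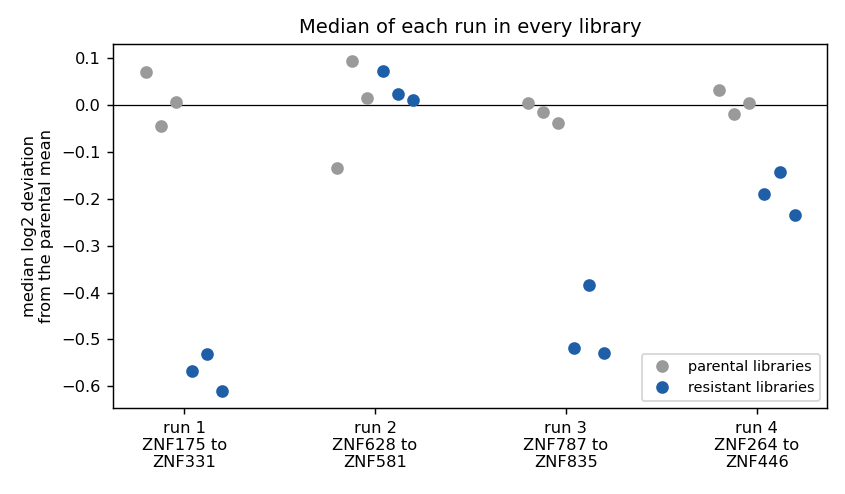
Median log2 deviation from the parental mean over the members of each run, with a point for each library (grey parental, blue resistant). The resistant points lie below the parental points in runs 1, 3 and 4 and among them in run 2.

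Run 1 opens with ZNF175, which had the largest fall of all members. ZNF175 (ENSG00000105497, 19:51571283-51592510, plus strand) encodes a KRAB protein, also called OTK18, that is known from macrophages as a suppressor of HIV-1 transcription. Its normalized values were 227, 196 and 276 in parental libraries 1 to 3 and 4.58, 0.510 and 1.06 in resistant libraries 7 to 9. The resistant mean of 2.05 ± 2.21 was 0.880% of the parental mean of 233 ± 40.2 (SD, n = 3 each) and lay under the limit of 3 reads. The log2 fold change was -6.48 (SE 0.47, limma adjusted p = 6.67e-06), and with a pseudocount of 10 in place of 1 it was -4.34. Its nearest member neighbour, ZNF577, is a KRAB gene that was at 351, 299 and 282 in parental and 147, 137 and 170 in resistant libraries, a log2 fold change of -1.03 (SE 0.15, limma adjusted p = 0.00049).

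The other large falls of run 1 lay further along. ZNF578, a KRAB gene with 10 predicted fingers, had values of 148, 156 and 105 in parental and 25.3, 18.9 and 48.0 in resistant libraries. Its log2 fold change was -2.20 (SE 0.34, limma adjusted p = 0.00065). ZNF83, which encodes 14 fingers and no KRAB domain, was at 592, 763 and 717 in parental and at 157, 195 and 157 in resistant libraries. All 3 resistant values lay far under the lowest parental value, and the log2 fold change was -2.02 (SE 0.14, limma adjusted p = 5.45e-06). ZNF432, a KRAB gene, went from a mean of 668 ± 113 to 330 ± 33.2, and ZNF415, also a KRAB gene, from 381 ± 39.8 to 169 ± 17.6 (SD, n = 3). They fell by 1.003 and 1.17 log2 units.

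The remaining falls of run 1 were smaller. ZNF677 stood at 1449, 1365 and 1383 in parental and at 778, 846 and 745 in resistant libraries, a log2 fold change of -0.83. ZNF320 went from a mean of 1475 ± 190 to 808 ± 81.5 (SD, n = 3). ZNF808, which is known to be needed for pancreas development, went from 578 ± 43.6 to 378 ± 42.2, and ZNF611, known to bind SVA retrotransposons, from 485 ± 26.2 to 387 ± 18.5. ZNF331, an imprinted gene at the far end of the run, went from 1108 ± 29.6 to 891 ± 52.6. ZNF845, by contrast, was at 907, 747 and 784 in parental and at 751, 828 and 723 in resistant libraries. Its groups overlapped, and its log2 fold change of -0.08 (SE 0.10) did not pass the test (limma adjusted p = 0.58).

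Several genes of run 1 share much of their sequence before the start. Promoters, taken as the 250 bases before the RefSeq start (GRCh38.p14), were found for 87 of the 98 members. Of 3741 pairs of these, 34 were identical at 80% or more of 250 bases in a global alignment, and 32 of the 34 joined the same 10 genes of run 1, ZNF808, ZNF701, ZNF83, ZNF611, ZNF468, ZNF845, ZNF525, ZNF765, ZNF761 and ZNF813. Of these 10, 8 fell, with log2 fold changes between -2.02 in ZNF83 and -0.08 in ZNF845 and a median of -0.42. The promoter of ZNF765, which had a log2 fold change of -0.39, was identical to that of ZNF83 at 85.6% and to that of ZNF845 at 86.8%, and ZNF83 and ZNF845 were identical at 82.0%. The 3 sequences are shown because they are so alike while the responses of the genes spanned the range of the group, with CG pairs, the sites of DNA methylation, in capitals.
ZNF83, 19:52690497-52690746, minus strand: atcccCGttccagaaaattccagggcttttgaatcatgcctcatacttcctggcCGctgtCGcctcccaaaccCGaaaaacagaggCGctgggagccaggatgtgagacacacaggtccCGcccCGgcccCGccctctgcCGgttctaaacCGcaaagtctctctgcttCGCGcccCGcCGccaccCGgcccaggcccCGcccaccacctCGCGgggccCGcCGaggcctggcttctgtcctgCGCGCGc
ZNF765, 19:53394899-53395148, plus strand: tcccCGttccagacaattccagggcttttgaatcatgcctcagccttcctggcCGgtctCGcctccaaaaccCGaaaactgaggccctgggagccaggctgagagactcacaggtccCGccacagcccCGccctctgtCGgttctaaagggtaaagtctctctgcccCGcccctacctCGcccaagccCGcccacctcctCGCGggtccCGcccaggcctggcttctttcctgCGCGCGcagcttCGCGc
ZNF845, 19:53333499-53333748, plus strand: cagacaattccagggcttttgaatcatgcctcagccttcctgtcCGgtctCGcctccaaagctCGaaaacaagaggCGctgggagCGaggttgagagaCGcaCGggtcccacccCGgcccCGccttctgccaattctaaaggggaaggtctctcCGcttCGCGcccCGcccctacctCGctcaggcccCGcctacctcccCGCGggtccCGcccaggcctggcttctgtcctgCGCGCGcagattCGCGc
These windows hold 23, 18 and 23 CG pairs. Methylation was not measured here.

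Run 2 was the least changed. It lies 1.90 Mb beyond run 1, and none of its 7 genes carries the KRAB pattern. It holds 4 of the 5 members with the highest level per kb of transcript, ZNF580 at 594 per kb, ZNF865 at 462, ZNF581 at 421 and ZNF579 at 355. ZNF580, which encodes 3 fingers, was at 1343, 1548 and 1463 in parental and 1521, 1642 and 1767 in resistant libraries. The ranges overlapped, and the log2 fold change of 0.18 (SE 0.09) did not pass the test (limma adjusted p = 0.12). ZNF865 had a log2 fold change of 0.13 and ZNF581 of 0.09, neither past the threshold. ZNF628 had the smallest difference of the run, with means of 571 ± 69.6 and 573 ± 33.7 (SD, n = 3). The exception was ZNF579, at 1214, 1415 and 1397 in parental and 953, 1071 and 1017 in resistant libraries, with a log2 fold change of -0.40 (SE 0.09, limma adjusted p = 0.0054).

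Run 3 contained genes with nearly equal values in both groups and a gene that was nearly lost. ZNF787, the other member among the 5 highest per kb (567 per kb), went from 2285 ± 158 to 1892 ± 49.2 (SD, n = 3), and fell by 0.27 log2 units (limma adjusted p = 0.015). This call was lost when parental library 3 was left out (adjusted p = 0.067). The next gene, ZNF444, which carries a SCAN domain, was at 1925, 1743 and 1722 in parental and 1807, 1844 and 1714 in resistant libraries, and its log2 fold change was -0.01 (SE 0.07). ZSCAN5A, another SCAN gene, was at 206, 202 and 225 in parental and at 124, 43.3 and 129 in resistant libraries. Its fall of 1.24 log2 units (SE 0.35, limma adjusted p = 0.020) lost its call without parental library 1 (adjusted p = 0.055) or parental library 3 (adjusted p = 0.062), and without resistant library 8, its lowest, the log2 fold change was -0.73 (adjusted p = 0.011).

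ZNF582 and ZNF835 fell most in run 3. ZNF582, a KRAB gene whose promoter is known to be methylated in several carcinomas, had values of 90.9, 110 and 111 in parental and 34.1, 32.8 and 46.1 in resistant libraries, a log2 fold change of -1.45 (SE 0.23, limma adjusted p = 0.0009). ZNF835 (ENSG00000127903, 19:56661980-56671783, minus strand), which closes the run, encodes 14 fingers and no KRAB pattern. It was at 113, 151 and 110 in parental and at 9.92, 10.0 and 5.12 in resistant libraries. The resistant mean of 8.35 ± 2.80 was 6.71% of the parental mean of 124 ± 22.6 (SD, n = 3), and the log2 fold change was -3.78 (SE 0.33, limma adjusted p = 1.92e-05). ZNF471, between these genes, was at 137 ± 20.7 and 142 ± 41.6 and did not pass the test.

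Run 4 had a pair of neighbours that fell most. ZNF135 (ENSG00000176293, 19:58059239-58086310, plus strand), a KRAB gene with 16 fingers, was at 31.6, 36.1 and 27.9 in parental and at 0, 4.02 and 0 in resistant libraries. Its resistant mean of 1.34 ± 2.32 lay under the limit of 3 reads, and the log2 fold change was -4.26 (SE 0.68, limma adjusted p = 0.00086), or -1.90 with a pseudocount of 10. ZSCAN18 (ENSG00000121413, 19:58083838-58118427, minus strand), a SCAN gene whose promoter is known to be methylated in gastrointestinal tumours, was at 1639, 1865 and 1784 in parental and at 504, 581 and 621 in resistant libraries. Its log2 fold change was -1.63 (SE 0.10, limma adjusted p = 2.26e-06), with a resistant mean 32.3% of the parental mean. These genes lie on opposite strands and share 2473 bases at their ends, and whether reads were counted by strand is not given in the sources used here. The promoter of ZSCAN18 had 27 CG pairs in 250 bases, and that of ZNF175, shown for comparison, 20, again with CG in capitals.
ZSCAN18, 19:58118405-58118654, minus strand: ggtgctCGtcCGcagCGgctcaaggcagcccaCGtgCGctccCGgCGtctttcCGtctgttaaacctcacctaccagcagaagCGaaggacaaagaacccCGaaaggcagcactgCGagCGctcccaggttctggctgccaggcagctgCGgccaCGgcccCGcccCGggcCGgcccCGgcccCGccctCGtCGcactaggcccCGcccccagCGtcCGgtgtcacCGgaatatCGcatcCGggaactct
ZNF175, 19:51571033-51571282, plus strand: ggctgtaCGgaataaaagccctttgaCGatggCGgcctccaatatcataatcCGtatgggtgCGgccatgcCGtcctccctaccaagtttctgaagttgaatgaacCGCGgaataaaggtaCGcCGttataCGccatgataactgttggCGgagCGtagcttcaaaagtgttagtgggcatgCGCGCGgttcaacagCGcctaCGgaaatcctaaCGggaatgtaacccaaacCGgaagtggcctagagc

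Other genes of run 4 fell by less or did not pass the test. ZNF530, a KRAB gene, was at 459, 476 and 485 in parental and at 241, 260 and 199 in resistant libraries, a log2 fold change of -1.03 (SE 0.13, limma adjusted p = 0.0002). ZNF417, known to repress HERV-K elements together with its near copy ZNF587, went from 501 ± 29.7 to 332 ± 14.1 (SD, n = 3), a difference of -0.59 on the log2 scale. ZNF587 was at 1176, 1285 and 1111 in parental and 1217, 1287 and 1205 in resistant libraries, and its log2 fold change of 0.06 did not pass the test. ZNF274, which is known to bring SETDB1 to the ends of other zinc finger genes, was at 501 ± 42.0 and 402 ± 61.3 and did not pass the test (limma adjusted p = 0.077). ZNF805 had the smallest difference of the run, at 280 ± 41.5 and 282 ± 43.3. ZNF154, whose promoter is known to be methylated in many tumours, was near the lower end of expression at 18.2, 17.9 and 29.3 in parental and 26.4, 46.5 and 27.3 in resistant libraries. Its log2 fold change of 0.58 (SE 0.36) was the highest of all members and did not pass the test (limma adjusted p = 0.23).

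A motif before the start was frequent in run 4. The letters CCGGAAGT, a form of the site bound by ETS factors, were searched on both strands and were found in 22 of the 87 promoters (25.3%), against 3.64% of 27305 RefSeq promoters of the same length and 10.2% of the promoters of other tested ZNF and ZSCAN genes. Of the 22, 19 were in run 4 (46.3% of its 41 promoters), 2 in run 1 (ZNF175 and ZNF578), 1 in run 3 (ZNF787) and 0 in run 2. Among members with the motif 8 of 22 fell, and among those without it 39 of 65 fell. This difference was not tested, and motif and position go together here. Most promoters with the motif lay in run 4, where 14 of 44 members fell, against 28 of 37 in run 1. Stretches of 40 bases are shown for pairs of similar or neighbouring genes, with the motif in capitals, since the pairs share the motif but not always the response.
ZNF587B, 19:57830252-57830291, plus strand: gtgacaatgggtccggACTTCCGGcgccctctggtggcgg
ZNF814, 19:57889040-57889079, minus strand: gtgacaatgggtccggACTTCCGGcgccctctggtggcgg
ZNF419, 19:57487710-57487749, plus strand: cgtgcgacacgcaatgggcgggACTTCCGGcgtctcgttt
ZNF773, 19:57499852-57499891, plus strand: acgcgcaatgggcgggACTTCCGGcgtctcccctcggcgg
ZNF324B, 19:58451582-58451621, plus strand: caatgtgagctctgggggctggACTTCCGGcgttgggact
ZNF324, 19:58467040-58467079, plus strand: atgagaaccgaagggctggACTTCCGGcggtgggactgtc

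ZNF587B and ZNF814 have the same 40 bases and promoters identical at 90.4%. ZNF587B was at 200, 200.2 and 176 in parental and 184, 174 and 211 in resistant libraries, and its log2 fold change of -0.02 (SE 0.15) did not pass the test. ZNF814 was at 267, 347 and 277 in parental and 180, 187 and 172 in resistant libraries, with a log2 fold change of -0.71 (SE 0.15, limma adjusted p = 0.0036). ZNF814 lies over ZNF587 on the opposite strand for 15259 bases. ZNF419 and ZNF773 both carry the motif and lie next to each other. ZNF419 went from 270 ± 8.24 to 346 ± 45.6 (SD, n = 3), a difference of 0.35 log2 units that did not pass the test (limma adjusted p = 0.057). ZNF773 fell, from 259, 200 and 228 in parental to 120, 121 and 114 in resistant libraries, with a log2 fold change of -0.94 (SE 0.16, limma adjusted p = 0.0011). Of the words of 100 bases in ZNF773 transcripts, 24.3% also occur in other genes, so its reads are less certain. ZNF324B and ZNF324 had log2 fold changes of 0.16 and -0.16, neither past the threshold. The share of words found in other genes was 28.5% in ZNF324 and 12.1% in ZNF587B, so their reads are also less certain. It was 7.55% in ZNF419, 7.34% in ZNF324B and 4.94% in ZNF814.

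Motifs other than that of ETS factors were searched on both strands in the same windows. GGGCGG, the core of the SP site, was in 66.7% of the member promoters against 42.3% of all promoters, and CCAAT in 43.7% against 33.0%. TATAAA was in 1.15% against 11.1%. In the promoters of other tested ZNF and ZSCAN genes the shares were closer, with 61.1% for GGGCGG, 45.8% for CCAAT and 3.61% for TATAAA. AAGATGGCG, a form of the YY1 site, was in 3 member promoters, all of genes that fell, against 0.641% of all promoters, and GCGCATGCG, the NRF1 site, was in 1 against 1.78%. Member promoters held a median of 19 CG pairs, beside 11 over all promoters and 17 over those of other ZNF and ZSCAN genes. The median was 20 in members that fell, 17.5 in those that did not pass and 22.5 in the 12 with the largest falls. A match of letters is a description of the window and not evidence of binding.

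Most of the members encode KRAB proteins. The KRAB pattern was found in 79 of the 98 predicted proteins (80.6%), beside 182 of 388 other tested ZNF and ZSCAN genes (46.9%), and the SCAN pattern in 6. The number of fingers ranged from 2 to 26, with a median of 12. Of members with the KRAB pattern 43 of 79 fell (54.4%), and of those without it 7 of 19 (36.8%). Among KRAB genes alone, 27 of 36 fell in run 1, 4 of 6 in run 3 and 12 of 37 in run 4. Among members without the pattern, 1 of 1 fell in run 1, 1 of 7 in run 2, 3 of 4 in run 3 and 2 of 7 in run 4. The differences between these counts were not tested. By level, 14 of the 33 lowest, 17 of the 33 middle and 19 of the 32 highest members fell. On the minus strand 28 of 43 members fell, and on the plus strand 22 of 55.

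Near copies and overlapping genes make some values uncertain. More than 10% of the transcript words of 100 bases were shared with another gene in 11 members, of which 2 fell, ZNF773 and ZNF417. Among the other 87 members 48 fell (55.2%), and none of the 12 largest falls was in a gene with more than 10% shared words. There were 14 pairs of members whose gene spans overlap, with 27 members in them, and of the 71 members outside such pairs 36 fell (50.7%).

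The 8 genes under the minimum of 10 were not tested. ZNF665, just under it with a mean of 9.30, was at 13.35, 23.6 and 14.5 in parental and at 0, 4.33 and 0 in resistant libraries. ZNF418 was at 4.63, 12.3 and 18.5 in parental and at 1.56, 2.02 and 0.802 in resistant libraries. The other 6, ZNF534, ZNF816-ZNF321P, ZSCAN5B, ZSCAN5C, ZSCAN4 and ZSCAN1, had means under 3 reads in both groups. Just inside the minimum lay ZNF135 with a mean of 16.6 and ZNF154 with a mean of 27.6. ZNF175, ZNF835 and ZNF135 passed the minimum through the parental libraries alone, so that they had to differ, and they are 3 of the 50 genes that fell.

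Genes of the interval without these symbols also fell more often than they rose. Of 137 such protein-coding genes 60 were tested, 36 fell and 1 rose, with a median log2 fold change of -0.34. Their summed value was 77.3% of the parental sum, the same share as in the zinc finger genes. Such a sum depends most on the genes with the highest values, of which UBE2S was the highest in parental libraries. The 35 tested genes between runs 1 and 2, where no member lies, had 22 falls (62.9%), 1 rise and a median of -0.39. SHISA7 was at 164, 190 and 146 in parental and at 22.7, 21.7 and 24.6 in resistant libraries, a log2 fold change of -2.80. UBE2S, which encodes a ubiquitin-conjugating enzyme of the anaphase-promoting complex, went from 36588 ± 5376 to 18654 ± 1040 (SD, n = 3), and MYADM, a membrane protein of myeloid cells, from 2064 ± 139 to 1063 ± 108. The single rise was in CACNG8, a calcium channel subunit, at 8.92, 14.6 and 12.8 in parental and 112, 120 and 109 in resistant libraries. Zinc finger genes under other symbols were also tested. ZIK1 fell, with a log2 fold change of -0.62 (limma adjusted p = 0.0014), as did FIZ1, with -0.36 (limma adjusted p = 0.0051), while ZFP28, ZBTB45 and MZF1 did not pass the test. Unnamed genes that overlap members were also counted among the 60. ENSG00000269825, ENSG00000268107 and ENSG00000283515 fell and share 1.75%, 21.2% and 4.70% of the words of ZNF83, ZNF773 and ZNF544, in this order. Their reads are therefore less certain.

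Zinc finger genes elsewhere gave other shares. In the cluster at 19p12 18 of 23 fell (78.3%), with a median log2 fold change of -1.77 and a summed value 45.3% of the parental sum. In proximal 19q13 13 of 64 fell (20.3%) and 4 rose, with a median of -0.19. On the rest of chromosome 19 17 of 49 fell (34.7%), and on other chromosomes 60 of 252 (23.8%), where 23 rose. Protein-coding genes of chromosome 19 outside the interval, zinc finger genes included, fell in 27.5% of 821 cases and rose in 14.1%, with a median of -0.10. The differences between these groups of genes were not tested, since genes are not replicates.

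**Figure D5:**
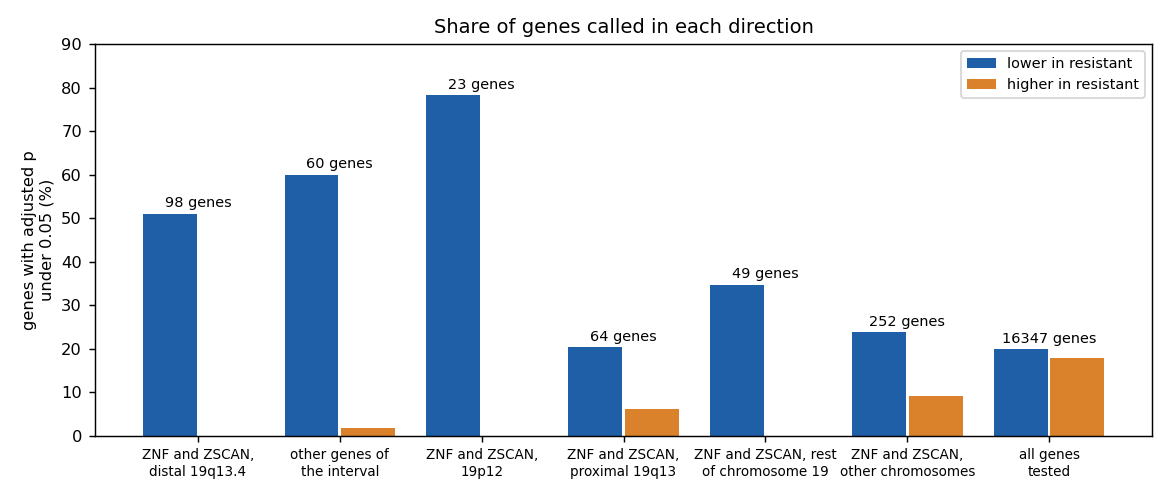
Percent of genes with a limma adjusted p under 0.05, lower (blue) and higher (orange) in resistant cells, for the zinc finger genes of distal 19q13.4, the other protein-coding genes of the interval, ZNF and ZSCAN genes of other positions and all genes tested, with the number of genes over each pair of bars. The members fell in 51.0% and rose in 0%, against 19.84% and 17.84% of all genes.

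Genes of the KRAB silencing pathway changed about as often as genes at large. Of 27 genes of the silencing pathway 26 were tested, 5 fell (19.2%, against 19.84% of all genes) and 4 rose (15.4%, against 17.84%), with a median log2 fold change of -0.05, and ZFP57 was listed at 0. TRIM28, which binds the KRAB domain and lies near the end of the interval (19:58544064-58550722), was at 27963, 25714 and 27312 in parental and 25490, 20425 and 24904 in resistant libraries. Its groups did not overlap, but its log2 fold change of -0.20 (SE 0.08) did not pass the test (limma adjusted p = 0.090). SETDB1, which trimethylates histone H3 at the bound sites, had means of 4434 ± 146 and 4346 ± 235 (SD, n = 3) and did not pass it either.

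Among these pathway genes MORC3 changed most. MORC3, on chromosome 21, encodes a nuclear ATPase linked to the silencing of endogenous retroviruses. It was at 747, 684 and 751 in parental and at 2060, 2152 and 1999 in resistant libraries, a log2 fold change of 1.51 (SE 0.08, limma adjusted p = 8.27e-07). Whether its neighbours on chromosome 21 moved with it was not examined here. ATRX, a chromatin remodeller, rose by 0.42 log2 units, MPHOSPH8, a reader of methylated histone H3, by 0.42, and the DNA methyltransferase DNMT1 by 0.23. The genes that fell were UHRF1 (-0.35), which guides DNMT1 to newly copied DNA, the deacetylase HDAC1 (-0.38), the heterochromatin proteins CBX5 (-0.38) and CBX3 (-0.27), and the histone methyltransferase SUV39H1 (-0.29), all as log2 fold changes. Without parental library 1, and likewise without resistant library 8, 3 genes of the list fell.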

How the data were processed

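RNA of 6 libraries was sequenced in read pairs. Per the labels and the study's methods, the authors trimmed reads with Trimmomatic (0.38), quantified genes with STAR and RSEM (1.3.1) on GRCh38 with Gencode annotation, and normalized the counts with DESeq2 (1.30.0). The deposited signal per gene and library is therefore not a count, is never negative and has no filter. In each library 48.5% to 62.2% of values under 10 were whole reads by the step between low values (within 0.05 reads). Counts could thus not be rebuilt, and count tests were left out. The step gave the depth, and limits of detection cover counting error only.

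The table had 62757 rows, of which 47 second copies of pseudoautosomal genes were dropped. Gencode v44 gave symbols and positions to 62639 of the 62710 others. Genes with a mean of at least 10 were tested with limma 3.58.1 (R 4.3.3; lmFit, eBayes with trend, condition only) on log2(value + 1). The limma step was tested on simulated data. As alternatives, the pseudocount was set to 0.1 or 10, the minimum mean to 50 or dropped, values were rescaled by TMM or by quantiles, the trend was left out, single libraries were left out and the gap between runs was changed.

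Fingers and the KRAB and SCAN patterns were read from coding sequences of Gencode v44 translated by a script (the planned RefSeq proteins were not used here), and the patterns may miss divergent forms. Promoters came from RefSeq (GRCh38.p14). The members and lists were chosen with earlier results of these data known. Genes named by rule were members with a called change of at least 1 log2 unit and the 5 highest per kb. Also named by rule were the smallest change in each run, TRIM28, and other interval genes and silencing pathway genes with the smallest p. Further genes were named after their values were seen.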

Additional observations from a re-analysis of the deposited data

How the results depend on the processing

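The count of members that fell was 50 with pseudocounts of 0.1 and 10 and with TMM scaling, 49 of 94 at a minimum mean of 50, 48 with quantile normalization, 46 without a filter and 41 in limma without the trend, and 0 rose in each of these. With each library left out in turn, 37 to 45 fell, 0 to 1 rose and the median log2 fold change was -0.382 to -0.302. Centring on the other genes of chromosome 19, chosen after seeing the data, gave 34 falls, 5 rises and a median of -0.257. With a gap of 0.1 Mb there were 11 runs, and with 0.5 Mb there were 3. Limma without the trend gave 2 rises among the other genes of the interval and 3 falls among the silencing pathway genes. The pathway genes had 3 to 5 falls with each library left out. The members named for the smallest change turned sign, none past the threshold. With each library left out in turn, the log2 fold change lay between -0.137 and 0.0026 in ZNF845, between -0.079 and 0.097 in ZNF628, between -0.035 and 0.045 in ZNF444 and between -0.105 and 0.118 in ZNF805, and with quantile normalization it was 0.041 in ZNF444 and -0.0019 in ZNF805. ZSCAN5A and ZNF787 also lost their calls without the trend (adjusted p = 0.078 and 0.053). No paired analysis was run. The study describes its parental and resistant samples as matched, but the labels (1 to 3 against 7 to 9) tie no parental library to a resistant one. Any pairing by harvest was therefore left out of the model. Genes under a value of about 3 reads, such as ZNF175 and ZNF135 in resistant libraries, have fold changes that depend on the pseudocount.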
